A study of Mus musculus with 8 samples.

Results

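Expression of 10 genes of the actin cytoskeleton and the contractile apparatus was examined in mouse liver. The genes were taken by symbol from a table of 24451 genes, and each symbol matched 1 row. They encode actins (Acta2, Actb, Actg1), myosin light chain and its kinase (Myl9, Mylk), proteins that bind along or crosslink actin filaments (Tagln, Tpm1, Flna, Actn1) and the intermediate filament protein vimentin (Vim). The samples were left liver lobes of 8 C57BL/6 mice (C57BL/6J for the floxed line, in the methods), 18 wk old and fasted for 6 h. In 4 Brap LKO mice, floxed Brap (Brap fl/fl) was combined with a Cre transgene under the albumin promoter (Alb-Cre+), so that recombination is limited to hepatocytes and other cells in which that promoter has been active. The other 4 mice, named Brap F/F here and wild type in the deposited labels, carried the floxed alleles without Cre, and no group carried Cre alone. The methods name male mice, with both sexes in pilot work, and the labels give no sex. The comparison asks which transcripts differ when hepatocytes lack the ubiquitin ligase BRAP.

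Actin polymerizes into filaments, and myosin II pulls on them once myosin light chain kinase has phosphorylated its light chain. Beta- and gamma-actin are the cytoplasmic forms of every cell, whereas alpha-smooth muscle actin, transgelin and MYL9 are abundant in vascular smooth muscle and in hepatic stellate cells that have become myofibroblasts. Many of these genes are targets of the transcription factor SRF, whose MRTF cofactors are held back by monomeric actin.

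Each liver had from 26280884 to 33313914 reads on genes. The group medians were 29382751 (Brap LKO) and 30943502.5 (Brap F/F). Values are normalized counts, that is, reads divided by a size factor of the liver. The targeted gene, Brap, had 4042, 4203, 4065 and 3641 normalized counts in Brap LKO replicates 1 to 4 and 4410, 4235, 3994 and 4106 in Brap F/F replicates 1 to 4. The groups overlapped (log2 fold change -0.07, limma adjusted p = 0.631; 0.09 when every liver was scaled to the same total). The floxed exons 2 and 3 hold 9.56% of the bases of the main coding transcript (the one with the longest open frame), so a count over the whole gene does not check the deletion, and the groups rest on the labels.

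Of the 10 genes, 1 passed the threshold (limma on log2(normalized count + 1), Benjamini-Hochberg adjusted p under 0.05 over 15352 tested genes). Flna was higher in the Brap LKO livers, and none of the 10 was lower by this test. Over all tested genes, 102 (0.664%) were higher and 16 (0.104%) lower. DESeq2 on the recovered reads called 457 higher and 174 lower, and limma with the same total per liver 459 and 20. In 3 genes, Flna, Vim and Myl9, every Brap LKO liver lay above every Brap F/F liver. That held for 841 of the tested genes (5.48%), and the opposite order, which none of the 10 genes showed, for 674 (4.39%). The log2 fold changes of 8 of the 10 genes were above 0 and their median was 0.26, against a median of -0.01 over all tested genes, of which 48.0% were above 0. Scaling every liver to the same total shifted the median of all tested genes to 0.15 and turned Mylk from -0.02 to 0.13.

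**Figure D1:**
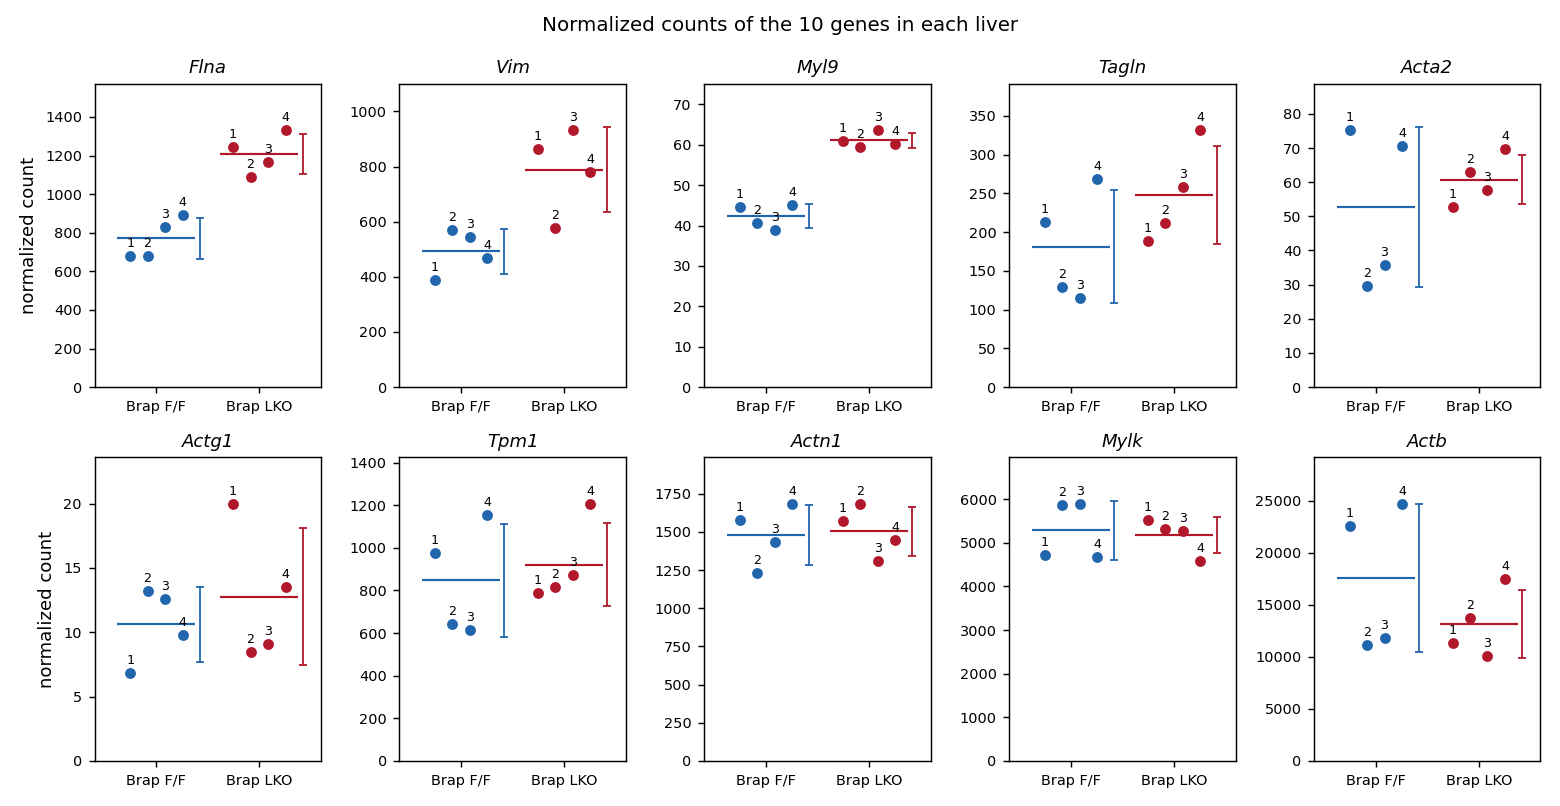
Normalized counts of the 10 genes, 1 point per liver with its replicate number; lines are group means and bars the SD of 4 livers. The groups are apart in Flna, Vim and Myl9, and in 6 genes (Acta2, Tagln, Tpm1, Actb, Actn1 and Myl9) replicates 1 and 4 of Brap F/F lie above replicates 2 and 3. The share of all tested genes with that order of Brap F/F livers was not counted.

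Flna encodes filamin A, which crosslinks actin filaments into networks and ties them to integrins. It lies on chromosome X of mm10 from 74223461 to 74249820. Its normalized counts were 1242, 1090, 1165 and 1333 in Brap LKO replicates 1 to 4 and 682, 679, 830 and 893 in Brap F/F replicates 1 to 4. The lowest Brap LKO liver, replicate 2, was above the highest Brap F/F liver, replicate 4. The group means were 1208 ± 104 and 771 ± 108 (SD, n = 4 each), a 1.57-fold difference (log2 fold change 0.65, standard error 0.108, 95% confidence interval 0.41 to 0.90, limma adjusted p = 0.0349). It was past the threshold in all 10 other settings run on the 8 livers (adjusted p from 4.74e-05 to 0.0390). Of the fits that left out 1 liver, only the one without Brap F/F replicate 4 kept the call (adjusted p = 0.0185). The adjusted p was 0.134, 0.0646, 0.0819 and 0.108 without Brap LKO replicates 1 to 4, and 0.0716, 0.0953 and 0.0626 without Brap F/F replicates 1 to 3. The log2 fold change stayed between 0.60 and 0.73 in these fits.

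Vim encodes vimentin, the intermediate filament protein of mesenchymal, endothelial and blood cells, and lies on chromosome 2 from 13573927 to 13582826. Its normalized counts were 865, 578, 933 and 779 in Brap LKO replicates 1 to 4 and 390, 570, 543 and 469 in Brap F/F replicates 1 to 4. The groups were apart by little, since Brap LKO replicate 2 stood next to Brap F/F replicate 2. The log2 fold change was 0.67 (standard error 0.166, 95% confidence interval 0.30 to 1.04) and did not pass the threshold (limma adjusted p = 0.104). It passed with the same total per liver and with DESeq2 on the recovered reads, and the adjusted p lay between 0.00893 and 0.145 over the 10 settings run on all livers.

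Myl9 encodes a regulatory light chain of smooth muscle and nonmuscle myosin II (chromosome 2, 156775420 to 156781658). Its normalized counts were 61.0, 59.5, 63.7 and 60.3 in Brap LKO replicates 1 to 4 and 44.5, 40.7, 38.9 and 45.1 in Brap F/F replicates 1 to 4. The spread within each group was small and no value of one group reached the other. The log2 fold change was 0.52 (standard error 0.133, 95% confidence interval 0.22 to 0.82), with a limma adjusted p of 0.109. It passed the threshold with the same total per liver only, and the adjusted p lay between 0.0402 and 0.246 over the 10 settings. With 37 to 70 reads per liver, counting error is a larger part of its spread than for Flna. In bulk liver, more cells of a type and more RNA per cell cannot be told apart.

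Promoter sequence from RefSeq was available for 8 of the 10 genes, as the 250 bases before the start that RefSeq gives. That start lies inside the GENCODE gene for each of the 8, by 3286 bases in Flna, 44 in Myl9 and 39740 in Mylk. For Flna and Myl9, whose groups were apart, the bases of that window outside annotated exons are shown 5′ to 3′ on the gene's strand (GRCm38.p6). The Flna stretch is chrX:74246556-74246784 (minus strand) and the Myl9 stretch chr2:156775214-156775419 (plus strand). Capitals mark a TEAD motif (CATTCC) in Flna and a CArG box, the motif of SRF, in Myl9.
Flna: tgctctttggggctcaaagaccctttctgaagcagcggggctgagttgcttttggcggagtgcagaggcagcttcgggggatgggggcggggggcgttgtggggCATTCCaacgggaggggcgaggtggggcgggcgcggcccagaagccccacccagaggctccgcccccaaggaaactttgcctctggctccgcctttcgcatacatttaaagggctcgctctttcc
Myl9: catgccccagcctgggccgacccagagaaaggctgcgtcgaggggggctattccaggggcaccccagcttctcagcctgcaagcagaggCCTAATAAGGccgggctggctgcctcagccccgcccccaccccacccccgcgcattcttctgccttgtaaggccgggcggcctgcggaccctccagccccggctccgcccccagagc
The TEAD motif begins 146 bases before the RefSeq start of Flna (74246534), and the CArG box 161 bases before that of Myl9 (156775464). The Vim window lies wholly within annotated exons and is not shown. Both strands were searched. A CArG box was found in 2 of the 8 windows (Myl9, Actg1), where 1.47% of all 32851 promoter windows of this length hold one. The TEAD motif was found in 4 (Acta2, Flna, Mylk, Tpm1; 12.6% of all windows) and the TATA box letters TATAAA in 1 (Vim; 12.4% of all windows). A match describes the letters only.

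**Figure D2:**
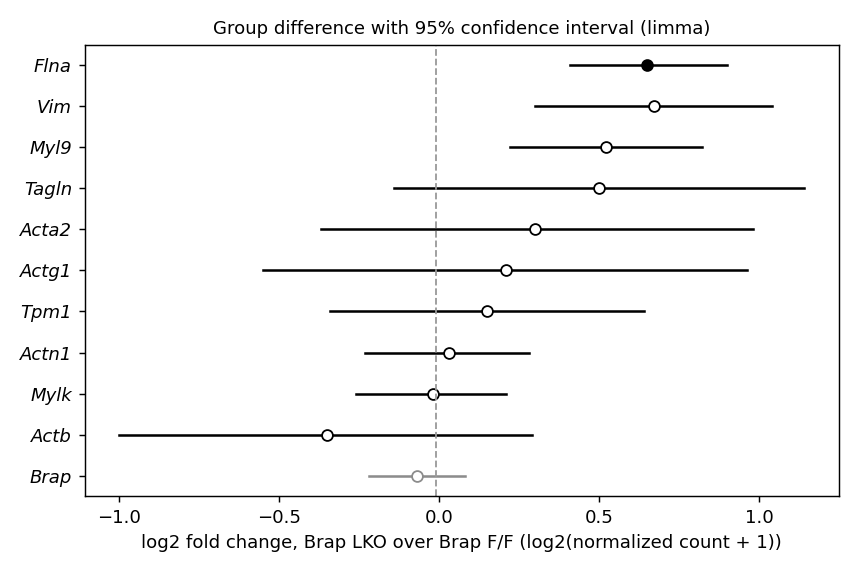
Log2 fold change of Brap LKO over Brap F/F for the 10 genes and Brap, with 95% confidence intervals from limma; the filled point is past the threshold and the dashed line is the median of all tested genes. The intervals of Flna, Vim and Myl9 lie above 0, and that of Actb spans -1.0 to 0.29.

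The smooth muscle genes Acta2 and Tagln varied more among the Brap F/F livers than between the groups. Acta2, the alpha-smooth muscle actin (chromosome 19, 34241090 to 34255590), had 52.8, 62.9, 57.7 and 69.7 normalized counts in Brap LKO replicates 1 to 4 and 75.3, 29.5, 35.7 and 70.6 in Brap F/F replicates 1 to 4. All Brap LKO values fell between the low Brap F/F replicates 2 and 3 and the high Brap F/F replicates 1 and 4. For Acta2, the log2 fold change was 0.30 (95% confidence interval -0.37 to 0.98, limma adjusted p = 0.645). Tagln, which encodes transgelin, an actin-binding protein of smooth muscle (chromosome 9, 45929619 to 45936058), had 188, 212, 258 and 332 in Brap LKO replicates 1 to 4 and 213, 129, 115 and 269 in Brap F/F replicates 1 to 4. Replicates 2 and 3 were again the low Brap F/F livers, and Brap LKO replicate 4 was the highest of the 8. For Tagln, the log2 fold change was 0.50 (95% confidence interval -0.14 to 1.14, limma adjusted p = 0.421). Of the exon bases of Tagln, 62.4% are also exon of Gm48529 and 5.43% of Pcsk7, both on the opposite strand, and the use of strand in counting is not stated. The counts of Tagln and of both partners are therefore uncertain. Gm48529 had 103 ± 12.7 and 121 ± 11 normalized counts in the Brap LKO and Brap F/F groups (SD, n = 4 each).

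Actb, which encodes beta-actin (chromosome 5, 142903115 to 142906754), also had Brap F/F replicates 1 and 4 above replicates 2 and 3, at a far higher count. It had 11303, 13681, 10104 and 17470 normalized counts in Brap LKO replicates 1 to 4 and 22540, 11104, 11757 and 24696 in Brap F/F replicates 1 to 4. The highest Brap F/F liver had 2.22 times the lowest, where the median of that ratio was 1.27 over the 10143 tested genes with a mean of at least 100 normalized counts. The log2 fold change of -0.35 was within this spread (95% confidence interval -1.0 to 0.29, limma adjusted p = 0.572). Tpm1 encodes a tropomyosin that lies along the actin filament (chromosome 9, 67022590 to 67049406). It had 789, 818, 870 and 1207 in Brap LKO replicates 1 to 4 and 975, 644, 612 and 1156 in Brap F/F replicates 1 to 4, so that replicate 4 was the highest liver of each group. Its log2 fold change was 0.15 (95% confidence interval -0.34 to 0.64, limma adjusted p = 0.758).

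Mylk, which encodes myosin light chain kinase (chromosome 16, 34745210 to 35002420), ran the other way. It had 5526, 5316, 5272 and 4592 normalized counts in Brap LKO replicates 1 to 4 and 4717, 5857, 5898 and 4667 in Brap F/F replicates 1 to 4. Brap F/F replicates 2 and 3 were the highest livers, and Brap LKO replicate 4 was the lowest of the 8. Between the groups Mylk differed by -0.02 on the log2 scale (95% confidence interval -0.26 to 0.21, limma adjusted p = 0.927). Actn1 encodes alpha-actinin 1, a crosslinker of stress fibres and adhesions (chromosome 12, 80167547 to 80260371). It had 1574, 1683, 1312 and 1450 in Brap LKO replicates 1 to 4 and 1577, 1230, 1431 and 1685 in Brap F/F replicates 1 to 4. The groups covered the same range, and the log2 fold change was 0.03 (95% confidence interval -0.23 to 0.28, limma adjusted p = 0.924). Mylk shares 4.87% of its exon bases with E130310I04Rik (mean of 4.87 normalized counts) and 1.99% with Gm21691 (6.11), both on the opposite strand. Actn1 shares 6.56% with Gm47766 (2.36) and 1.59% with Gm47767 (0.379), also on the opposite strand.

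Actg1 encodes gamma-actin (chromosome 11, 120345690 to 120348542), and its counts were low for a gene of every cell. They were 20, 8.50, 9.11 and 13.5 in Brap LKO replicates 1 to 4 and 6.84, 13.2, 12.6 and 9.81 in Brap F/F replicates 1 to 4, from 6 to 22 reads per liver. The groups overlapped, and the highest and the lowest liver belonged to different groups (log2 fold change 0.21, 95% confidence interval -0.55 to 0.96, limma adjusted p = 0.789). Of the 50-base words of its transcript, the length of a read, 56.7% also stand in transcripts of 22 other genes. The largest share, 51.1%, is held in common with the pseudogene Gm12715, itself at a mean of 0.719 normalized counts. How reads with several equal positions were counted is not stated, so the level of Actg1 is uncertain, and the cause of its low count was not tested. Actb shares 14.2% of its words with 18 other genes, 9.57% with Lrrc58, which had a mean of 2184 normalized counts. The share was 48.3% in Tagln, 10.2% in Actn1, 4.28% in Mylk, 0.352% in Acta2 and 0 in Flna, Vim, Myl9 and Tpm1.

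**Figure D3:**
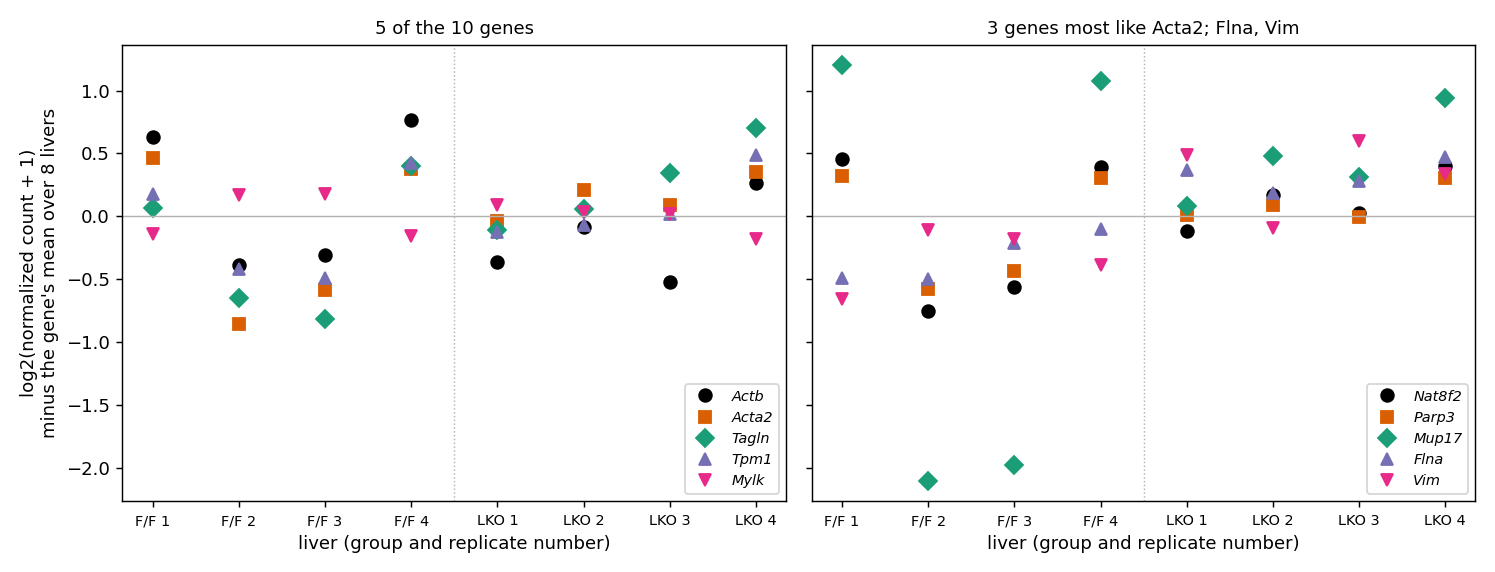
Values of single genes in each liver, as log2(normalized count + 1) minus the gene's mean over the 8 livers. Actb, Acta2, Tagln and Tpm1 are high in Brap F/F replicates 1 and 4 and low in replicates 2 and 3, Mylk is the reverse, and the 3 genes most like Acta2 have the same 2 high and 2 low Brap F/F livers.

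The pattern over the 8 livers was compared with that of the other tested genes by Pearson r of log2(normalized count + 1), as a description. The genes most like Acta2 were Nat8f2 (r = 0.993), Parp3 (r = 0.991) and Mup17 (r = 0.990), and those most like Actb were Tmem214 (r = 0.991), Copg1 (r = 0.989) and Slc35b1 (r = 0.987). Mup17, a major urinary protein gene of the hepatocyte, had 8146, 10711, 9547 and 14732 normalized counts in Brap LKO replicates 1 to 4 and 17663, 1787, 1949 and 16165 in Brap F/F replicates 1 to 4. Brap F/F replicates 2 and 3 were thus far below all other livers for this gene. Nat8f2 had 30979, 37675, 34229 and 44425 in Brap LKO replicates 1 to 4 and 46025, 19920, 22689 and 44094 in Brap F/F replicates 1 to 4. Copg1, a subunit of the COPI vesicle coat, had 2658, 2902, 2662 and 3518 and then 4026, 2603, 2712 and 4100 in the same order of livers. Its order among the Brap F/F livers was that of Actb. These 6 genes had limma adjusted p between 0.520 and 0.697, so none was past the threshold. The labels name no batch that puts Brap F/F replicates 1 and 4 together. By animal number, Brap F/F replicate 1 and Brap LKO replicates 1 to 3 belong to a lower series and the other livers to a higher one, and the part of any handling difference in this pattern was not tested.

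Levels of different genes were compared as RPKM, that is, reads scaled to the exon length of the gene and to the reads on genes of the liver. Actb had the highest level of the 10 genes, 193 ± 69.5 (SD, n = 8), above 98.6% of tested genes. Mylk followed at 15.6 ± 1.49 and Actn1 at 9.12 ± 1.33. Tpm1 (4.62 ± 1.26), Vim (4.61 ± 1.61), Tagln (3.68 ± 1.36) and Flna (3.60 ± 1.12) did not differ beyond their spread at this length. Below them stood Myl9 at 1.52 ± 0.388, Acta2 at 0.880 ± 0.278 and Actg1 at 0.149 ± 0.0586, the last above 10.7% of tested genes. Against the length of the transcript with the longest coding sequence, Tpm1 was at 16.4 and stood above Actn1 at 13.5, and Vim at 9.96 stood above Tagln (4.59) and Flna (4.07). In whole liver, the beta-actin transcript was thus 219 times as abundant per length as that of alpha-smooth muscle actin.

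**Figure D4:**
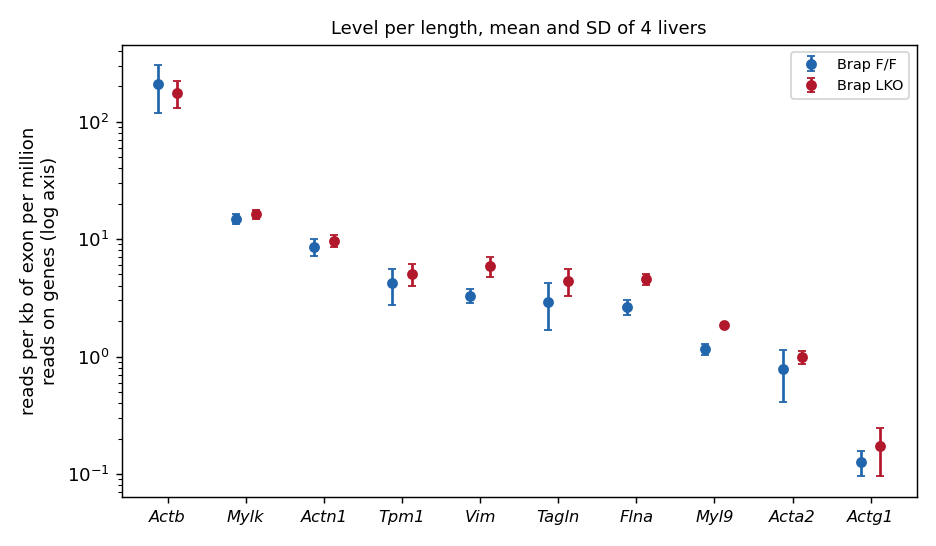
Level per length of the 10 genes on a log axis, as mean and SD of the 4 livers of each group. Actb stands above all others, and Acta2 and Actg1 are the lowest.

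Other genes of the same systems were examined in 11 lists, each read from the same fit. Of 4 other actin genes, Acta1, Actc1 and Actg2 were below the filter on low values and Actbl2 was not analysed here. Of 6 nonmuscle myosin II genes, 0 passed the threshold (median log2 fold change 0.12). The most abundant per length was Myh9, a heavy chain, with 8181, 8604, 7498 and 10251 normalized counts in Brap LKO replicates 1 to 4 and 10046, 6313, 6493 and 10559 in Brap F/F replicates 1 to 4. Within Brap F/F, replicates 1 and 4 were above replicates 2 and 3, as for Actb. Of 8 tested tropomyosins, calponins and related genes, 0 passed (median 0.10), and the most abundant was Cnn3 (log2 fold change -0.17). Of 11 tested crosslinkers and bundlers, 0 passed (median 0.19), although 4 had groups that were apart with the Brap LKO livers higher. Their most abundant member was Actn4 (-0.07), the alpha-actinin of nonmuscle cells beside Actn1.

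Among 17 focal adhesion genes 1 passed, Csrp1, which encodes a LIM protein of actin bundles. Csrp1 had 364, 331, 464 and 491 normalized counts in Brap LKO replicates 1 to 4 and 204, 189, 197 and 263 in Brap F/F replicates 1 to 4, without overlap (log2 fold change 0.94, limma adjusted p = 0.0337). Leaving out either Brap LKO replicate 2 or else Brap F/F replicate 4 kept the call, and leaving out any other liver lost it (adjusted p from 0.0185 to 0.0960). The list median was 0.06, and its most abundant gene, Tns1, had a log2 fold change of -0.34. Among 31 genes of actin assembly and turnover 1 passed, Gsn, which encodes the severing protein gelsolin. Gsn had 1173, 816, 1219 and 1397 in Brap LKO replicates 1 to 4 and 315, 447, 425 and 542 in Brap F/F replicates 1 to 4, the lowest Brap LKO liver standing well above the highest Brap F/F liver. Its log2 fold change was 1.41 (limma adjusted p = 0.0180), and leaving out Brap LKO replicates 1, 3 or 4, or Brap F/F replicate 2, put it above the threshold (range over the 8 such fits 0.0144 to 0.0739). The other 30 genes did not pass, and the list median was -0.04. Pfn1 (profilin 1), the most abundant, had a log2 fold change of -0.06.

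Of 3 tested genes for SRF and its cofactors, 0 passed (median -0.08), and Srf itself was at -0.08. Of 14 tested SRF target genes outside the 10, 2 passed, Csrp1 and Ccn1, and 5 had groups that were apart with the Brap LKO livers higher. Their median of 0.31 was the highest of the 10 lists with tested genes. Ccn1 encodes a secreted matrix protein that is also a target of YAP. It had 296, 393, 262 and 282 normalized counts in Brap LKO replicates 1 to 4 and 190, 146, 149 and 193 in Brap F/F replicates 1 to 4 (log2 fold change 0.85, limma adjusted p = 0.0469). Of the fits without 1 liver, only that lacking Brap F/F replicate 4 kept it (range 0.0402 to 0.15), and it was also lost with a minimum mean of 20, the replicate block or the animal series as a covariate (highest adjusted p = 0.114).

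Of 12 cortical linker genes 1 passed, Msn, which encodes moesin, the ERM protein of leukocytes and endothelium. Msn had 1019, 890, 801 and 912 normalized counts in Brap LKO replicates 1 to 4 and 641, 649, 682 and 668 in Brap F/F replicates 1 to 4, without overlap (log2 fold change 0.45, limma adjusted p = 0.0461). The call was lost in every fit that left out 1 liver (range of adjusted p 0.0515 to 0.134), and on all livers with the animal series as a covariate (0.0844) or the replicate block (0.0861). The most abundant linker, Slc9a3r1, was at -0.23. Of 11 other intermediate filament genes, 0 passed. Their median of -0.05 has no firm sign, since it was above 0 in 7 of the 8 fits that left out 1 liver (up to 0.26). Krt18, a keratin of hepatocytes and bile ducts and the most abundant of them, had 3583, 3649, 3677 and 5689 in Brap LKO replicates 1 to 4 and 6656, 2481, 2541 and 7739 in Brap F/F replicates 1 to 4, again high in Brap F/F replicates 1 and 4. Of 10 tested tubulins 1 passed, Tuba8, with 53.7, 83.3, 85.0 and 129 in Brap LKO replicates 1 to 4 and 14.8, 31.5, 25.2 and 18.6 in Brap F/F replicates 1 to 4 (log2 fold change 1.90, limma adjusted p = 0.0313). With 1 liver left out, the call was kept only when that was Brap F/F replicate 4 (range 0.0445 to 0.0929). Tuba4a, the most abundant tubulin, was at -0.07.

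**Figure D5:**
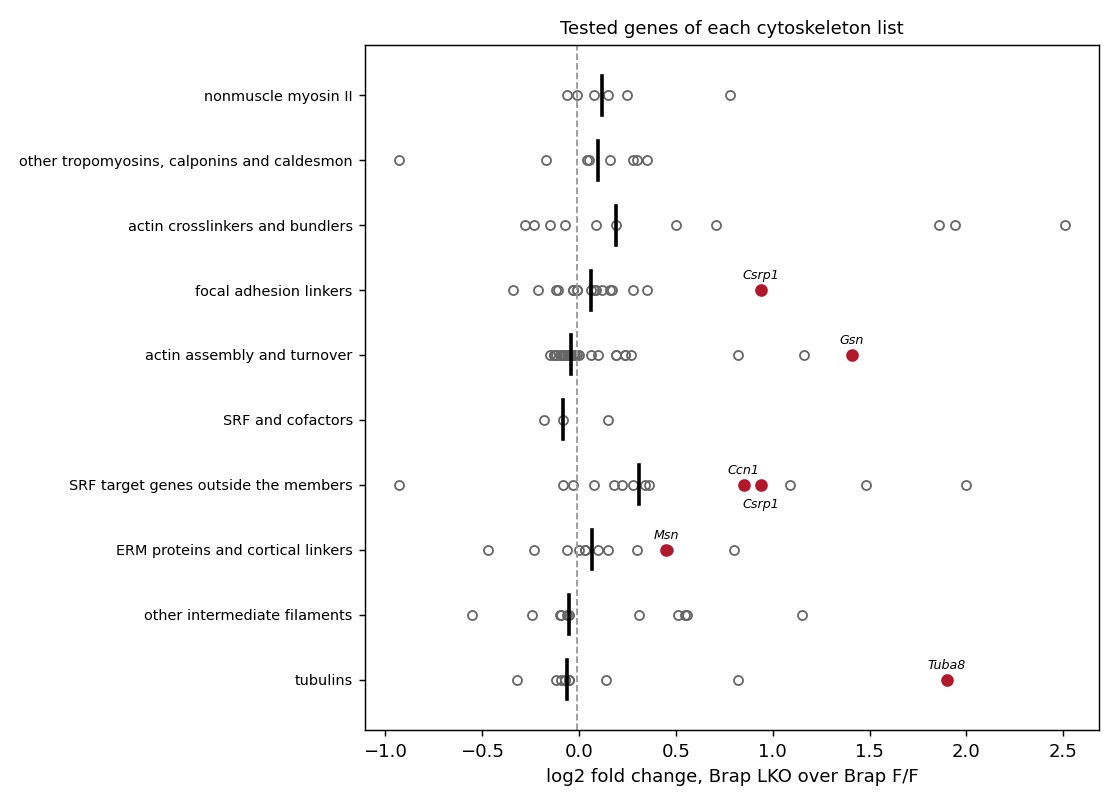
Log2 fold changes of the tested genes of 10 lists; filled points are past the threshold, bars are list medians and the dashed line is the median of all tested genes. Genes past the threshold are Csrp1, Gsn, Ccn1, Msn and Tuba8, all higher in the Brap LKO livers, and list medians lie between -0.08 and 0.31.

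Several of the genes above are used as markers of nonparenchymal cells, so marker lists of cell types were read in the same livers. Summed counts cover every listed gene present in the table, tested or not. Of 5 tested smooth muscle markers 0 passed, and the median log2 fold change was 0.37. The summed normalized counts of the list were 473, 497, 516 and 502 in Brap LKO replicates 1 to 4 and 369, 401, 381 and 465 in Brap F/F replicates 1 to 4, apart as for Myl9. Smtn held the largest counts of the list, 281 ± 21.7 in Brap LKO and 210 ± 23.3 in Brap F/F (SD, n = 4 each). It was the only member with groups apart. The most abundant per length was Mustn1 (log2 fold change 0.37), and Smtn (0.42), Lmod1 (0.71) and Synpo2 (0.22) were also above 0. The heavy chain Myh11 of smooth muscle was the only tested marker of the list below 0 (-0.11). Its counts were 72.0 to 85.3 in Brap LKO and 68.3 to 101 in Brap F/F. Cnn1, which was not tested, did not exceed 5.89 in any liver. Of 10 hepatic stellate cell markers 1 passed, the receptor gene Pdgfrb, with 428, 358, 476 and 601 against 212, 223, 241 and 305 (log2 fold change 0.91, limma adjusted p = 0.0494). It was kept when Brap F/F replicate 4 was left out and lost with any other liver left out (range 0.0275 to 0.15). The summed markers lay between 6986 and 10413 in the Brap LKO livers and were 6038, 12037, 12299 and 6843 in Brap F/F replicates 1 to 4. The list median was 0.21 (from 0.08 to 0.28 when 1 liver was left out). The most abundant gene was Ecm1 (log2 fold change -0.56), and the sum was highest in Brap F/F replicates 2 and 3, where Acta2 and Tagln were lowest.

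Of 11 tested markers of activated stellate cells and fibroblasts, 2 passed, Loxl1 (1.66, limma adjusted p = 0.0446) and Fbln2 (0.95, adjusted p = 0.0402). DESeq2 put 6 of the 11 past the threshold, and 4 passed with the same total per liver, the replicate block or the animal series as a covariate. The list median was 0.95. When 1 liver was left out, Loxl1 kept the call only without Brap F/F replicate 4 (highest adjusted p = 0.15), and Fbln2 without Brap F/F replicate 3 or 4 (highest 0.146). The sums were 7083, 5464, 8538 and 8264 in Brap LKO replicates 1 to 4 and 3504, 5599, 5520 and 4733 in Brap F/F replicates 1 to 4. Brap LKO replicate 2 had the lowest sum of its group, as for Vim. Dcn was the most abundant (0.37), and Timp1 was at or below 6.24 in every liver. Of 11 macrophage markers, all had a log2 fold change above 0 (median 0.61) and 1 passed, Gpnmb (2.20, adjusted p = 0.0480; kept only without Brap F/F replicate 4, highest adjusted p = 0.165). The macrophage sums were 8844, 7664, 5129 and 6106 in Brap LKO replicates 1 to 4 and 5079, 5298, 4863 and 6569 in Brap F/F replicates 1 to 4, with Lyz2 the most abundant gene (0.72).

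Of 6 leukocyte markers 0 passed, against 2 with DESeq2 or with the same total per liver. The median was 0.50, and between 0.29 and 0.81 when 1 liver was left out. Their sums were 513, 404, 300 and 482 against 308, 277, 224 and 246, and the most abundant, Ptprc, was apart between the groups (0.66, limma adjusted p = 0.103). Of 6 sinusoidal endothelial markers 0 passed (median 0.22, from 0.07 to 0.37 when 1 liver was left out; sums 7592, 5643, 6257 and 5167 against 4458, 5877, 6779 and 4651, led by Clec4g at 0.16). Of 7 cholangiocyte markers 1 passed, Cldn4 (adjusted p = 0.0494), with at most 1.05 normalized counts per Brap F/F liver; the call was kept only when Brap LKO replicate 2 was left out (range 0.0497 to 0.174). All 7 cholangiocyte markers had a log2 fold change above 0 (median 0.95), and 3 had groups that were apart with the Brap LKO livers higher. The cholangiocyte sums were 2198, 2220, 1912 and 3756 against 1618, 1282, 1129 and 2126, led by Spp1 (0.95). Of 5 mesothelial markers 1 passed, Wt1 (2.43, limma adjusted p = 0.0177). It was lost without Brap LKO replicates 1, 3 or 4 or Brap F/F replicate 2 (highest adjusted p = 0.0685). Gpm6a, the most abundant of this list, was at 0.08, which was also the list median. Msln was at 0.12, and Upk3b (-0.71) and Lrrn4 (-0.39) were below 0. The mesothelial sums were 116, 60.3, 200 and 211 against 49.0, 142, 144 and 153.

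The skeletal muscle genes Acta1, Myh4 and Tnnt3 did not exceed 3.12 normalized counts in any liver. Of 3 tested platelet markers and 4 red blood cell markers 0 passed, with Itga2b (-0.16) and Hbb-bs (-0.06) the most abundant. The platelet sums were 136, 99.4, 109 and 70.7 against 104, 120, 120 and 84.4, and the red blood cell sums 872, 802, 1139 and 442 against 738, 1224, 976 and 468. Of 8 hepatocyte markers 0 passed, and in 1, Asgr1, every Brap LKO liver (9006 to 11189) lay below every Brap F/F liver (11438 to 13103; log2 fold change -0.25, limma adjusted p = 0.240). Their sums were 2237045, 2262912, 2872887 and 2064849 against 2594955, 3972268, 3254989 and 3057081, led by Alb (-0.52), and the list median was -0.34. The part of cell composition in the values of Flna, Vim and Myl9 was not tested.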

How the data were processed

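Poly(A) libraries from 8 left liver lobes, 4 per genotype, were sequenced as single-end reads. According to the submitters' processing notes, reads were aligned with STAR 2.6.0c to mm10. The counting tool, annotation release and use of strand are not given in the sources used here. As signal, the deposited table gives a read count per gene that the authors scaled with DESeq2 size factors. All values (100%, within 0.01 of a whole number) were whole multiples of 1 read, so reads were recovered. The authors' second table holds their own comparison (mean, log2 fold change and its error, fold change, p-value and adjusted p-value) and was not used.

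Groups were compared with limma 3.58.1 in R 4.3.3 (lmFit, eBayes with trend) applied to log2(normalized count + 1), a scale that understates the change of low genes. No covariate was used, and the 15352 genes with a mean of at least 5 were tested. Calls required an adjusted p (Benjamini-Hochberg) below 0.05. All 10 genes passed the filter. The fits were tested on simulated data, in which livers varied independently and a gene's spread followed from its mean. The split among Brap F/F livers was not simulated, so shares of false calls there may not hold for these data. A larger share of the calls was false with DESeq2 than with limma in the simulation, and the limit set for DESeq2 in that test was loosened after a run missed it. Alternatives were pseudocounts of 0.5 and 5, no filter, a minimum mean of 20, the same total per liver, TMM factors, edgeR 4.0.16 (quasi-likelihood) and DESeq2 1.42.0 on the recovered reads, a block for replicate number, a covariate for animal series, and leaving out each liver. At the same threshold, edgeR called 109 genes and DESeq2 631.

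The genes and lists were chosen with earlier results of these data known. The text names all 10 genes. Of each list described it names the genes past the threshold (up to 4) and the most abundant tested gene per length. For Acta2 and Actb it names the 3 genes with the highest Pearson r. Asgr1, Myh11, Smtn, Lmod1, Synpo2, Cnn1, Timp1, Postn, Msln, Upk3b, Lrrn4 and the low muscle genes were named after their values were seen. Lists are described by counts and medians, with no test of the list. Positions, lengths and shared exons come from GENCODE M21 of the same build, which holds 24430 of the 24451 genes, and promoters from RefSeq (GRCm38.p6). Python 3.11.15 with pandas 2.3.3, numpy 2.4.6 and scipy 1.17.1 was used. P-values measure the spread between these animals.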

Additional observations from a re-analysis of the deposited data

How the results depend on the processing

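The number of genes past the threshold, 118 (limma), was 479 with the same total per liver (459 higher, 20 lower) and 631 (457 higher, 174 lower) with DESeq2, with all 118 among the latter. It was 18, 54, 29 and 21 without Brap LKO replicates 1 to 4 and 48, 18, 45 and 232 without Brap F/F replicates 1 to 4. Of the 10 genes, 1 was past it, against 3 with the same total per liver (Flna, Vim, Myl9), 2 with DESeq2 (Flna, Vim) and from 0 to 1 when 1 liver was left out. Under the same total the median of all genes moved to 0.15, Mylk to 0.13 and Brap to 0.09. Other changes of sign were those of Actn1 with the animal series as a covariate (-0.02) and with Brap LKO replicate 2 (-0.03) or else Brap F/F replicate 2 (-0.06) left out, of Mylk with Brap LKO replicate 4, Brap F/F replicate 2 or Brap F/F replicate 3 left out (0.03 each, -0.08 without Brap F/F replicate 1), and of Actg1 without Brap LKO replicate 1 (-0.02, and 0.36 without Brap LKO replicate 2). The cause was not tested. Acta2, Tagln, Actb, Myl9, Tpm1, Flna and Vim kept their direction in all 18 settings. Actg1 has no value at a minimum mean of 20. Of the other genes named in the text as past the threshold, Gsn, Csrp1, Tuba8 and Wt1 stayed past it in all 10 settings run on the 8 livers. The replicate block ended the calls of Ccn1 (0.0785), Cldn4 (0.0789), Fbln2 (0.0647), Gpnmb (0.0659) and Msn (0.0861). The animal series as a covariate ended those of Ccn1 (0.114) and Msn (0.0844). A minimum mean of 20 ended those of Ccn1 (0.0505), Loxl1 (0.0505) and Pdgfrb (0.0549), and edgeR those of Cldn4 (0.0603), Gpnmb (0.0507), Loxl1 (0.0505) and Pdgfrb (0.0507). A pseudocount of 0.5 ended those of Cldn4 (0.0547), Gpnmb (0.0505) and Pdgfrb (0.0505), and a pseudocount of 5 that of Cldn4 (0.0723).

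Several list medians changed sign. With the same total per liver those of actin assembly and turnover (0.12), SRF and cofactors (0.08), other intermediate filaments (0.10), tubulins (0.10) and red blood cell markers (0.10) turned positive. The other intermediate filaments were also positive at a minimum mean of 20 (0.13), with the animal series (0.11) and in 7 of the 8 fits without 1 liver (0.09 to 0.26). Leaving out 1 liver also turned the medians of tubulins and red blood cell markers positive (up to 0.01 and 0.25) and those of focal adhesion and mesothelial genes negative (down to -0.03 and -0.42). The animal series turned tubulins (0.05), focal adhesion (-0.01, as did edgeR and DESeq2) and platelet markers (-0.14; -0.16 at a minimum mean of 20). The cause was not tested.

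With DESeq2 and with the same total per liver, the genes past the threshold numbered 1 and 1 in nonmuscle myosin II, 3 and 2 in crosslinkers, 1 and 2 in focal adhesion, 2 and 3 in assembly and turnover, 3 and 3 in SRF targets, 1 and 2 in cortical linkers, 1 and 1 in smooth muscle, 3 and 2 in macrophages and 2 and 1 in cholangiocytes. The animal series put 2 crosslinkers, 1 intermediate filament gene, 1 leukocyte marker and 2 cholangiocyte markers past it. Leaving out 1 liver also moved by more than 1.5 times the medians of platelets, stellate cells (0.08 to 0.28), nonmuscle myosin II, tropomyosins, crosslinkers, assembly and turnover, SRF and cofactors and cortical linkers.

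Same-numbered livers of the groups did not deviate together (r of -0.13, 0.0034, 0.20 and 0.29 over genes for numbers 1 to 4), so the numbers do not pair them. With the replicate block 95 genes were past the threshold, 1 of them among the 10. Per length, the levels of Actb (269), Mylk (22.5), Tpm1 (16.4), Vim (9.96) and Actn1 (13.5) moved by more than 1 SD with the other transcript length. Reads on Actg1 (6 to 22) and Acta2 (29 to 74) limit what could be seen in these genes.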
